A study of Mus musculus with 9 samples.

Results

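The heat shock proteins and cochaperones of the mouse colon were examined in 9 bulk RNA-seq libraries. The members were the genes whose symbols carry the HSP90, HSP70 and HSP110, small HSP, HSP60 and HSP10, DNAJ, chaperonin (Cct) or heat shock factor (Hsf) stems, with pseudogenes left out. They came to 86 of the 35315 genes in the table. By family these were 3 HSP90 genes, 14 HSP70 and HSP110 genes, 7 small HSP genes, 2 HSP60 and HSP10 genes, 4 Dnaja, 13 Dnajb and 28 Dnajc genes, 9 Cct genes and 6 genes with the Hsf stem. Of these, 72 reached 1 FPKM in at least 3 libraries and were tested beside all 14360 genes that did so. FPKM counts sequenced fragments relative to the length of the transcript and to the mapped total of the library, so levels of different genes are on one scale per length.

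All 9 libraries were made from colons of C57BL/6J mice aged 8 weeks, in 3 groups of 3. The GsMTx4 group drank 2.5% dextran sulfate sodium (DSS) over 7 days and was injected intravenously on days 2, 4 and 6 with 10 mg/kg GsMTx4, a spider venom peptide that blocks mechanosensitive cation channels such as Piezo1. The DSS group had the same water with solvent injections on those days. The Control group had plain water, and no injection is listed for it, so DSS and the injections cannot be told apart in any comparison with Control. DSS damages the colonic epithelium and is a common chemical model of colitis. Nothing in the labels ties each library to its own mouse, so the replicate spread behind every p-value may be technical. The 3 comparisons share libraries and are therefore not independent of one another.

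Chaperones bind unfolded proteins and help them reach or keep their folded state. HSP70 proteins work with J-domain partners (the DNAJ proteins), which bring substrates and start ATP hydrolysis, while HSP90 acts later on kinases and hormone receptors and the ring-shaped chaperonins enclose a substrate. Each organelle has its own set: Hspa9, Hspd1 and Hspe1 serve the mitochondrial matrix, Hspa5, Hsp90b1 and several DNAJ proteins serve the lumen of the endoplasmic reticulum (ER), and the Cct ring folds actin and tubulin in the cytosol. Heat shock factor 1 switches on the heat-inducible cytosolic genes through heat shock elements, whereas ER chaperone genes answer to the unfolded protein response through ER stress response elements.

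Stretches of 6 member promoters are printed as examples of the heat shock element and the ER stress response element. They were chosen because they hold a match, and not every gene of a set does. Promoter windows of 69 of the 86 members were found in RefSeq for GRCm38.p6, and the 250 bases before each start were searched on both strands. Hspe1, the mitochondrial co-chaperonin, is shown first with a run of heat shock units in capitals, then the inducible cytosolic genes Hspa1a and Hspa1b with a 2-unit element in capitals. The stretches lie at chr1:55088053-55088082 on the plus strand, chr17:34972233-34972280 on the minus strand and chr17:34959315-34959362 on the minus strand, and each is written 5′ to 3′.
Hspe1: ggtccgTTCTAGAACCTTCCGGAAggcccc
Hspa1a: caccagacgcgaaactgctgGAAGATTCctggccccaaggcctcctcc
Hspa1b: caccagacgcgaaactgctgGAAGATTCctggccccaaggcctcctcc
The Hspa1a and Hspa1b stretches are identical, and 247 of the 250 bases before the starts of these genes match. The Hspe1 element begins 89 bases before the start of its RefSeq transcript, which is base 55088148. In the GENCODE annotation Hspe1 runs on the plus strand from 55088132 to 55091307 of chromosome 1 and Hspd1 on the minus strand from 55077835 to 55088243, so the genes lie head to head, their annotated ends overlap, and the printed stretch lies within the annotated span of Hspd1.

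The next lines show stretches before the RefSeq starts of 3 ER chaperone genes, with an ER stress response element in capitals. They are the HSP70 of the ER lumen Hspa5 at chr2:34772020-34772048 on the plus strand, its HSP90 counterpart Hsp90b1 at chr10:86705513-86705571 on the minus strand, where the element reads in reverse, and the J-domain protein Dnajc3 at chr14:118937807-118937865 on the plus strand.
Hspa5: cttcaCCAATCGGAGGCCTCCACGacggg
Hsp90b1: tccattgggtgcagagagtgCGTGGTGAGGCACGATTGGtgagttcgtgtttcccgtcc
Dnajc3: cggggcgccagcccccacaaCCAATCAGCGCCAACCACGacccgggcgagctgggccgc
The Hspa5 stretch precedes the RefSeq start at base 34772090 but lies within the GENCODE gene, which begins at base 34771970 and has an untranslated exon there. Exact ER stress response elements, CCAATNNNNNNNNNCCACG, occurred in 0.113% of all 32851 windows and in 3.41% of the 88 windows of members. The 2-unit heat shock element, GAANNTTC or TTCNNGAA, occurred in 12.8% of all windows and in 21.6% of members' windows, covering 17 member genes. The 3-unit form, GAANNTTCNNGAA or TTCNNGAANNTTC, contains the shorter one and occurred in 0.466% of all windows and in 4.55% of members' windows, those of Dnajb6, Hspd1 and Hspe1. The Hspd1 and Hspe1 matches are the same bases, read on opposite strands. Both Dnajb6 windows overlap and hold the same match. The shares therefore count windows and not separate sites. By set, the ER stress response element was found in 3 of the 7 ER members with a window, and in 0 of the 6 heat-inducible and 0 of the 5 mitochondrial members with one. The 2-unit heat shock element was found in 5 of those 6 heat-inducible members (not in Dnajb1), in Hspd1 and Hspe1 of the mitochondrial set and in Dnajc10 of the ER set. A match describes letters in these windows and says nothing of binding. Dnajb11 and Dnajb9, both among the members that passed the test, have windows without an exact ER stress response element.

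Summed FPKM per library ran between 349125 and 440935, and 12830 to 14036 genes reached 1 FPKM; the read depth behind these values is unknown. Epithelial markers were present throughout, with summed levels of 5893 to 7431 FPKM in GsMTx4, 5809.8 to 8192 FPKM in DSS and 5882 to 7309.7 FPKM in Control libraries. DSS libraries differed among themselves in the summed markers of some cell types. Smooth muscle markers summed to 282 FPKM in DSS replicate 1 and to 1079.7 FPKM in DSS replicate 3, against 698 to 911 FPKM in GsMTx4 and 554 to 890.2 FPKM in Control libraries, and enteric neuron and glia markers reached 26.2 FPKM in DSS replicate 3 and at most 7.75 FPKM outside the DSS group. Hepatocyte markers summed to 33.9 to 55.5 FPKM in GsMTx4, 2.39 to 6.21 FPKM in DSS and 20.1 to 25.8 FPKM in Control libraries. The low DSS sum did not hold for most of the list. Of its 6 tested markers, 2 fell and 0 rose in DSS against Control, with 4 above 0 and a median log2 fold change of 0.06. All 6 rose in GsMTx4 against DSS. Beside these counts, 10.7% of all tested genes fell and 6.41% rose in DSS against Control, and 6.66% rose in GsMTx4 against DSS. No listed marker was at 0 in every library. Members took 0.397% to 0.551% of the summed FPKM in GsMTx4 libraries, 0.370% to 0.543% in DSS libraries and 0.515% to 0.546% in Control libraries, so the groups overlapped in their total chaperone share.

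Few members passed the test, and those that did belonged to the mitochondrial, Cct and ER sets. In DSS against Control, 1 member rose (Dnajb11) and 3 fell (Hspa9, Hspd1 and Cct4) at an adjusted p under 0.05 in limma, which is 1.39% and 4.17% of the 72 tested members. Over all tested genes, 6.41% rose and 10.7% fell in that comparison, so the members were called no more often than the background in either direction. In GsMTx4 against DSS, 8 members rose (Hspa9, Hspd1, Dnaja3, Cct2, Cct4, Cct5, Cct6a and Cct7) and 2 fell (Dnajb11 and Dnajb9), which is 11.1% and 2.78%, where 6.66% and 5.62% of all tested genes did. The median log2 fold change of the members was -0.19 in DSS against Control and 0.11 in GsMTx4 against DSS, beside -0.17 and 0.07 for all tested genes. Most genes shared these signs, which bears on every count of signs below. Of the 14360 tested genes, 9404 were below 0 in DSS against Control and 9219 in GsMTx4 against Control. In GsMTx4 against DSS 8137 were above 0. In GsMTx4 against Control limma called 0 members in either direction, 0.188% of all tested genes higher and 0.0487% lower, and 1 member, Dnajb12, had an unadjusted p under 0.05. The split of the DSS against Control calls depended on scaling, with 6 higher and 2 lower by median of ratios, 4 and 4 by quantile normalization and 0 and 6 as TPM, and as TPM GsMTx4 against DSS had 1 higher and 0 lower. Sample weights gave 3 higher and 13 lower in DSS against Control, and a fit of the compared groups alone gave 2 higher and 9 lower there and 1 higher and 0 lower in GsMTx4 against DSS. Leaving out 1 library at a time gave 0 to 4 higher and 1 to 8 lower in DSS against Control and 1 to 9 higher and 0 to 3 lower in GsMTx4 against DSS. Each library moved one of these counts by more than 1.5 times, except GsMTx4 replicate 2 in DSS against Control. A library outside the compared groups entered a fit only through the spread that the 3 groups share. Leaving such a library out moved the p-values and not the fold changes. As the tissue was sequenced in bulk, fewer cells of a type and less RNA per cell cannot be told apart for any of these genes.

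**Figure D1:**
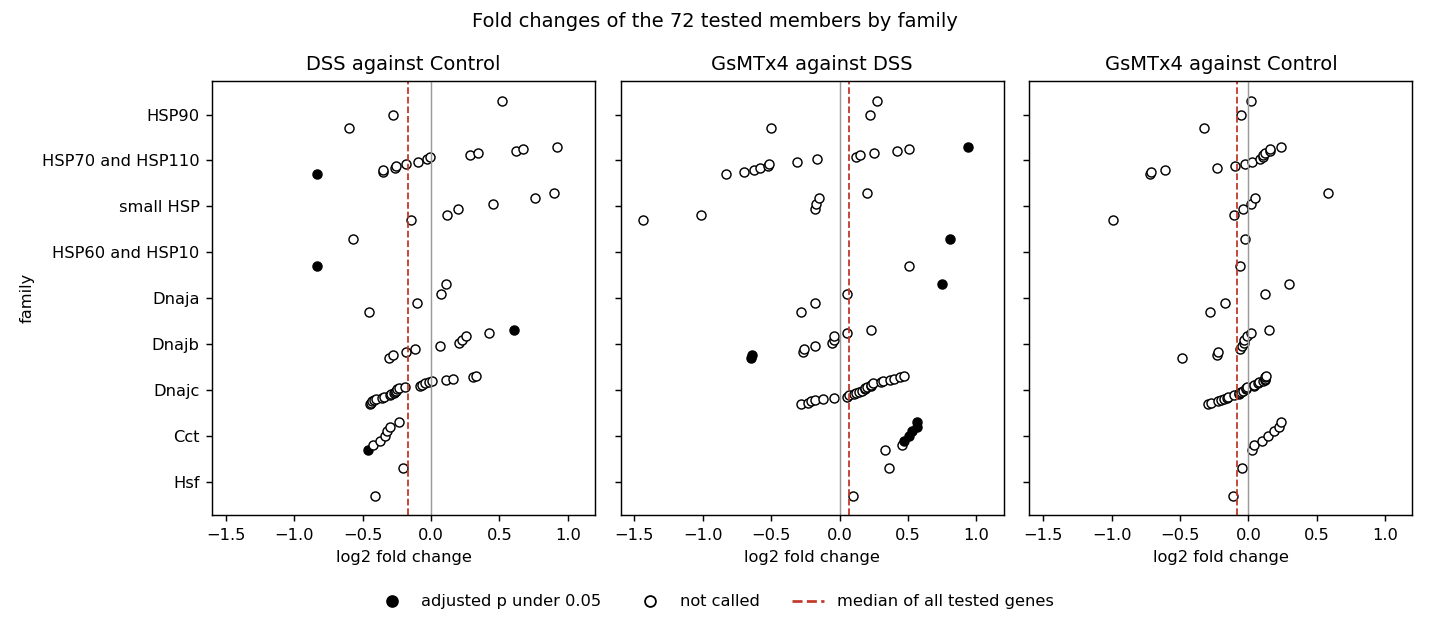
Log2 fold changes of the 72 tested members by family in the 3 comparisons, with 1 point per gene, filled where the adjusted p was under 0.05, and a dashed line at the median of all tested genes. The Cct points form a tight cluster below 0 in DSS against Control and above 0 in GsMTx4 against DSS, while the HSP70 and small HSP points spread over both sides.

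Mitochondrial chaperones had lower means in DSS than in Control libraries, and most had higher means in GsMTx4 than in DSS libraries. Of the 8 tested members of this set, 2 fell and 0 rose in DSS against Control (median log2 fold change -0.45, all 8 below 0), and 3 rose and 0 fell in GsMTx4 against DSS (median 0.48, 7 above 0). Beside these, 10.7% of all tested genes fell and 6.41% rose in the first comparison, and 6.66% rose and 5.62% fell in the second. Hspa9, the mitochondrial HSP70 (mortalin) that pulls proteins through the import channel, lies on chromosome 18 from 34937414 to 34954357 on the minus strand of GRCm38. Its level was 74.9, 93.2 and 74.0 FPKM in the GsMTx4 libraries, 47.0, 34.2 and 44.1 FPKM in the DSS libraries and 71.4, 78.9 and 73.5 FPKM in the Control libraries. All 3 DSS libraries lay below every library of both other groups, which overlapped each other. The log2 fold change was -0.83 ± 0.16 (SE) in DSS against Control (adjusted p = 0.00993) and 0.94 ± 0.16 in GsMTx4 against DSS (adjusted p = 0.00902). Hspa9 kept both calls whichever single library was left out and under every other alternative run, though near the threshold in some (adjusted p = 0.0498 at the highest in DSS against Control with a library left out).

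Hspd1 (HSP60) forms the folding chamber of the mitochondrial matrix. It had 90.4, 127 and 86.0 FPKM in GsMTx4, 68.9, 41.8 and 62.7 FPKM in DSS and 95.5, 112 and 98.2 FPKM in Control libraries. The DSS libraries again did not overlap either other group. Hspd1 fell by 0.83 ± 0.22 on the log2 scale in DSS against Control (adjusted p = 0.0329) and rose by 0.81 ± 0.22 in GsMTx4 against DSS (adjusted p = 0.0451). The first call was lost without DSS replicate 2, DSS replicate 3 or any Control library (highest adjusted p = 0.117), and the second without any library but DSS replicate 1 (highest adjusted p = 0.145). Hspe1 (HSP10), the lid of that chamber, had 40.0, 60.0 and 67.4 FPKM in GsMTx4, 40.3, 33.1 and 41.0 FPKM in DSS and 58.7, 57.8 and 53.8 FPKM in Control libraries. GsMTx4 replicate 1 lay among the DSS libraries, and Hspe1 did not pass in DSS against Control (log2 fold change -0.57 ± 0.19, adjusted p = 0.0727) or in GsMTx4 against DSS (0.51 ± 0.19, adjusted p = 0.115). Of the 50-base stretches of the transcript, 44.8% for Hspd1 and 36.1% for Hspe1 also occur in other transcripts, mostly of pseudogenes, so their levels are uncertain to the extent that reads were shared.

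Dnaja3 (Tid1), the J-domain partner of Hspa9 in mitochondria, was at 16.1, 15.7 and 12.1 FPKM in GsMTx4, 8.69, 7.31 and 8.81 FPKM in DSS and 12.3, 10.8 and 11.8 FPKM in Control libraries. It rose in GsMTx4 against DSS (log2 fold change 0.75 ± 0.14, adjusted p = 0.0135), a call lost only without GsMTx4 replicate 2 (adjusted p = 0.0536), and missed the threshold in DSS against Control (-0.45 ± 0.14, adjusted p = 0.0594). Dnajc11, a J-domain protein bound to the complex that shapes the cristae, averaged 5.98 ± 1.12 FPKM in GsMTx4, 4.12 ± 0.685 FPKM in DSS and 5.97 ± 0.645 FPKM in Control libraries (SD, n = 3 each) and was not called (limma adjusted p = 0.107 in GsMTx4 against DSS and 0.0878 in DSS against Control). The other mitochondrial J proteins Dnajc15, Dnajc19 and Dnajc30, which are tied to protein import and the respiratory chain, had log2 fold changes of -0.29, -0.30 and -0.23 in DSS against Control and 0.18, 0.14 and -0.04 in GsMTx4 against DSS, and none was called. Outside the member list, the mitochondrial HSP90 Trap1 averaged 34.2 ± 5.21 FPKM in GsMTx4, 19.8 ± 3.20 FPKM in DSS and 35.0 ± 1.25 FPKM in Control libraries. Trap1 fell in DSS against Control (-0.81 ± 0.16, adjusted p = 0.0104) and rose in GsMTx4 against DSS (0.76 ± 0.16, adjusted p = 0.0174), where the call was lost without GsMTx4 replicate 2 (adjusted p = 0.0630). Trap1 belongs to a list of 17 tested organelle and substrate-specific chaperones outside the members. Of these, 2 rose and 2 fell in DSS against Control, where 6.41% and 10.7% of all tested genes did. In GsMTx4 against DSS 3 rose and 0 fell, beside 6.66% and 5.62% of all tested genes. Lonp1, the matrix protease and chaperone, also fell in DSS against Control (-0.61 ± 0.15, limma adjusted p = 0.0259) and rose in GsMTx4 against DSS (0.58 ± 0.15, limma adjusted p = 0.0377). These calls were lost when 4 and 7 of the 9 libraries were left out in turn. Clu, a secreted chaperone of the same list, averaged 21.1 ± 4.68 FPKM in GsMTx4, 54.2 ± 15.7 FPKM in DSS and 12.3 ± 9.31 FPKM in Control libraries. It rose in DSS against Control (2.25 ± 0.43, adjusted p = 0.00981) and kept that call without any single library, and was not called in GsMTx4 against DSS (-1.31 ± 0.43, adjusted p = 0.0787). Naca, a chaperone of nascent chains at the ribosome, rose in GsMTx4 against DSS (0.64 ± 0.18, adjusted p = 0.0462), a call kept only without GsMTx4 replicate 1.

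**Figure D2:**
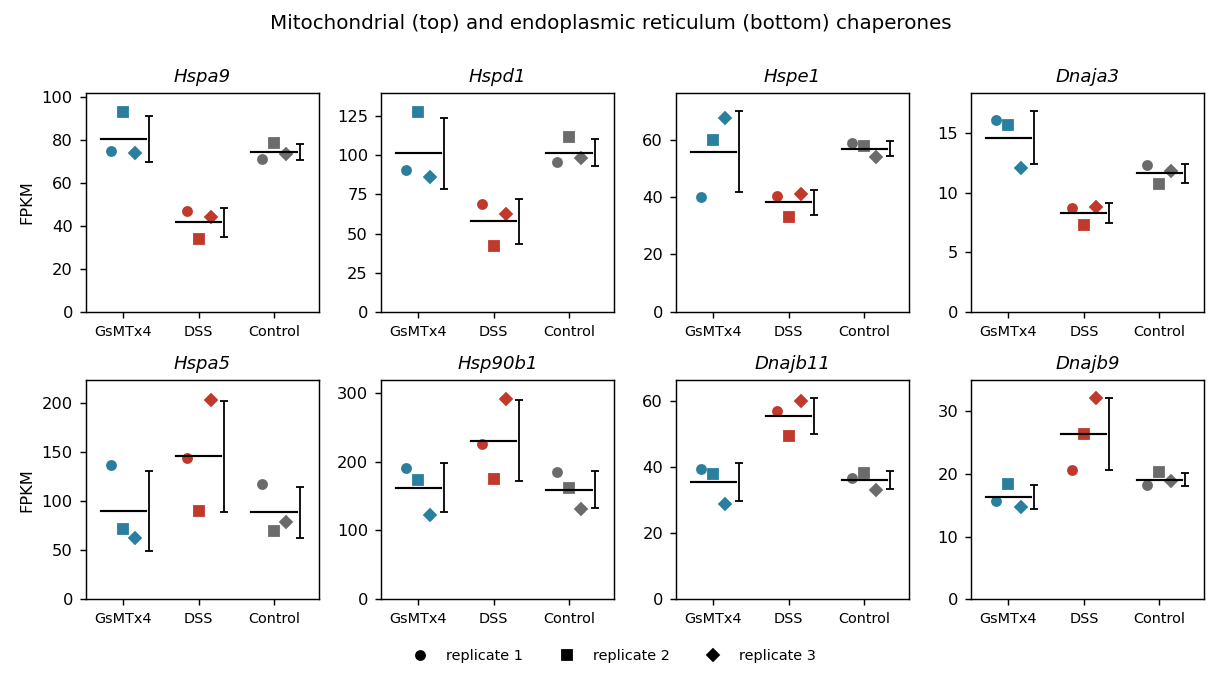
FPKM of 4 mitochondrial members (top) and 4 ER members (bottom) in each library, with marker shape giving the replicate number, a horizontal line at the group mean and a bar of 1 SD. The DSS libraries of Hspa9 (34.2 to 47.0 FPKM) sit below both other groups, and those of Dnajb11 (49.5 to 60.1 FPKM) sit above them.

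The Cct ring, the cytosolic chaperonin built of 8 kinds of subunit, had means that shifted together. All 7 tested Cct members had a lower mean in DSS than in Control (median log2 fold change -0.34), though only Cct4 fell past the threshold, and all 7 had a higher mean in GsMTx4 than in DSS (median 0.51), where Cct2, Cct4, Cct5, Cct6a and Cct7 rose. In DSS against Control 10.7% of all tested genes fell, and in GsMTx4 against DSS 6.66% rose. Summed over the family, the level was 248, 312 and 294 FPKM in GsMTx4, 208, 185 and 212 FPKM in DSS and 269, 258 and 253 FPKM in Control libraries. The DSS sums lay below every other library, and GsMTx4 replicate 1 was the lowest of its group.

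Cct4, the delta subunit, had 25.8, 32.4 and 30.1 FPKM in GsMTx4, 21.6, 18.4 and 21.2 FPKM in DSS and 29.1, 28.1 and 28.1 FPKM in Control libraries. It fell by 0.46 ± 0.13 on the log2 scale in DSS against Control (adjusted p = 0.0377), a call lost without any one DSS or Control library (highest adjusted p = 0.117), and rose by 0.51 ± 0.13 in GsMTx4 against DSS (adjusted p = 0.0354). Cct2, the beta subunit and the most abundant one here, had 65.2, 77.4 and 75.1 FPKM in GsMTx4, 53.3, 49.96 and 52.3 FPKM in DSS and 70.4, 65.6 and 66.6 FPKM in Control libraries. In both genes the DSS libraries stood apart from the libraries of the other groups. Cct2 rose by 0.47 ± 0.12 in GsMTx4 against DSS (adjusted p = 0.0378) and missed the threshold in DSS against Control (-0.37 ± 0.12, adjusted p = 0.0638).

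Cct5, the epsilon subunit, averaged 61.9 ± 9.31 FPKM in GsMTx4 and 42.3 ± 2.53 FPKM in DSS libraries, against 53.7 ± 2.64 FPKM in Control libraries. Cct6a, the zeta subunit, averaged 34.3 ± 5.27 FPKM in GsMTx4 and 22.7 ± 1.33 FPKM in DSS libraries, against 30.7 ± 0.897 FPKM in Control libraries. Cct7, the eta subunit, averaged 22.0 ± 2.50 FPKM in GsMTx4 and 14.6 ± 1.89 FPKM in DSS libraries, against 18.5 ± 2.26 FPKM in Control libraries. These subunits rose in GsMTx4 against DSS by 0.53 ± 0.14, 0.57 ± 0.14 and 0.56 ± 0.15 on the log2 scale (adjusted p = 0.0433, 0.0303 and 0.0410), and none was called in DSS against Control (adjusted p = 0.127, 0.0619 and 0.157). Each of the 5 Cct calls in GsMTx4 against DSS was lost without any single library but GsMTx4 replicate 1, with a highest adjusted p between 0.106 for Cct6a and 0.139 for Cct5. Control libraries enter this comparison through the shared spread alone, so leaving 1 out did not move these fold changes.

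The remaining tested subunits did not pass. Cct3 (gamma) had log2 fold changes of -0.23 ± 0.15 in DSS against Control (adjusted p = 0.303) and 0.45 ± 0.15 in GsMTx4 against DSS (adjusted p = 0.0837), and Cct8 (theta) had -0.30 ± 0.14 (adjusted p = 0.154) and 0.33 ± 0.14 (adjusted p = 0.144). The alpha subunit Tcp1, which the member rule leaves out by its name, had 25.5, 33.0 and 29.3 FPKM in GsMTx4, 20.2, 17.9 and 20.7 FPKM in DSS and 28.1, 26.0 and 23.7 FPKM in Control libraries. It rose in GsMTx4 against DSS (0.55 ± 0.14, adjusted p = 0.0337), a call that also held only without GsMTx4 replicate 1, and not in DSS against Control (-0.39 ± 0.14, adjusted p = 0.0794). Among 10 chaperonin partners in all (Tcp1, prefoldin subunits and phosducin-like proteins), 1 rose in GsMTx4 against DSS and 0 fell, and in DSS against Control 0 passed and 3 had an unadjusted p under 0.05. The shares over all tested genes were 6.66% higher and 5.62% lower in GsMTx4 against DSS, and 6.41% higher and 10.7% lower in DSS against Control.

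**Figure D3:**
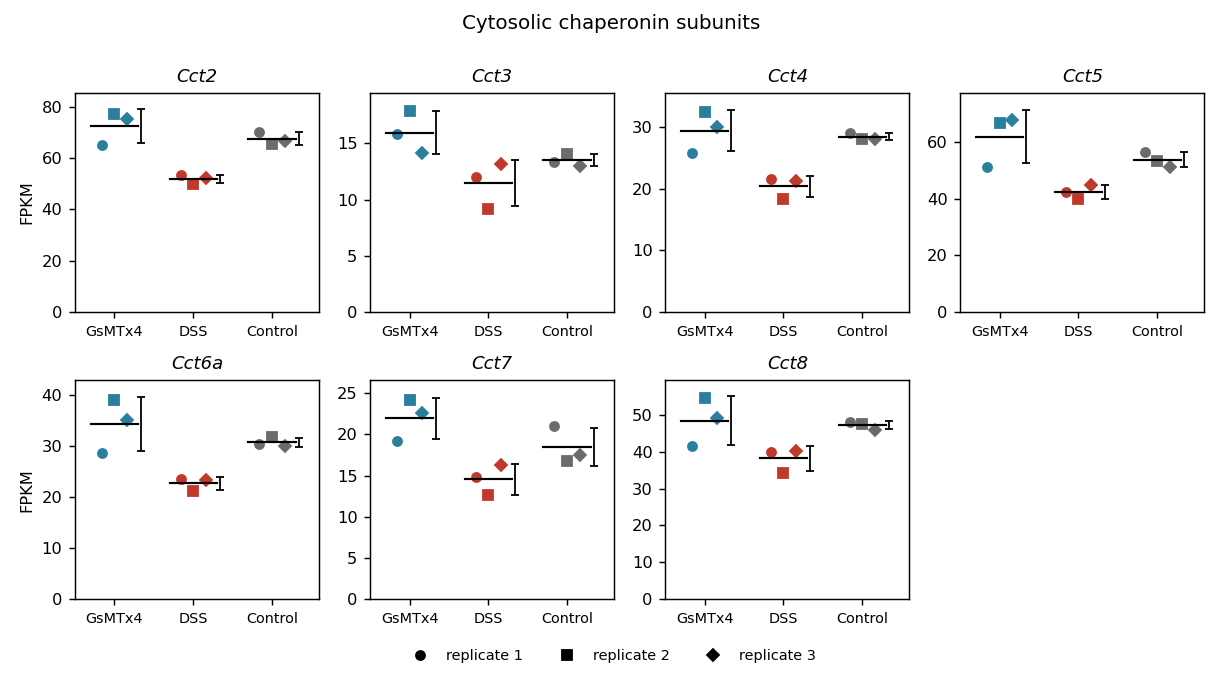
FPKM of the 7 tested Cct subunits in each library, with marker shape giving the replicate number, a horizontal line at the group mean and a bar of 1 SD. In Cct2 the DSS libraries lie between 49.96 and 53.3 FPKM, below the 65.2 to 77.4 FPKM of GsMTx4 and the 65.6 to 70.4 FPKM of Control libraries.

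Markers of cycling cells were also lowest on average in DSS libraries. Their summed level was 109 to 213 FPKM in GsMTx4, 83.4 to 123 FPKM in DSS and 186 to 209.8 FPKM in Control libraries, and GsMTx4 replicate 1 was the lowest of its group in this sum, as in the Cct sum. Of the 12 markers, 3 fell in DSS against Control, with all 12 below 0, and 0 passed in GsMTx4 against DSS, with all 12 above 0. Among all tested genes 10.7% fell in the first comparison, and 6.66% rose in the second. The signs parted in GsMTx4 against Control. There all 12 markers were below 0 (median -0.25), while all 7 tested Cct members were above 0 (median 0.14), or 4 of the 7 as TPM. Their part in the Cct and mitochondrial results was not tested.

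**Figure D4:**
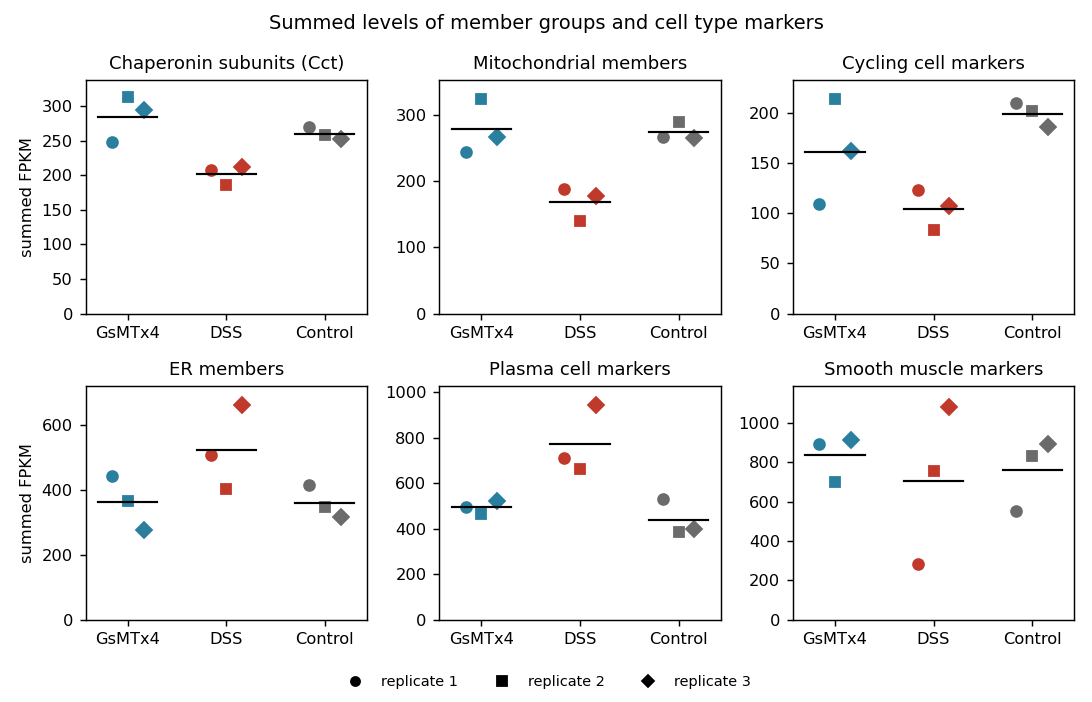
Summed FPKM per library of the Cct, mitochondrial and ER members and of the cycling cell, plasma cell and smooth muscle markers, with marker shape giving the replicate number and a line at the group mean. The Cct and mitochondrial sums are lowest in DSS libraries, as is the mean of the cycling cell sum, while DSS replicate 3 is highest for the ER members (661 FPKM), the plasma cell markers (942 FPKM) and the smooth muscle markers (1079.7 FPKM).

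Most ER chaperones had the opposite signs. Of the 8 tested members of the ER set, 1 rose and 0 fell in DSS against Control (median log2 fold change 0.38, 6 above 0), and 0 rose and 2 fell in GsMTx4 against DSS (median -0.41, 7 below 0). Among all tested genes, 6.41% rose and 10.7% fell in the first comparison, and 6.66% rose and 5.62% fell in the second. Dnajb11 (ERdj3), a J-domain partner of Hspa5 that binds unfolded chains in the ER lumen, lies on chromosome 16 from 22857845 to 22879634. It had 39.5, 38.0 and 28.8 FPKM in GsMTx4, 57.1, 49.5 and 60.1 FPKM in DSS and 36.8, 38.3 and 33.1 FPKM in Control libraries. The DSS libraries lay above all others, and the other groups overlapped. Dnajb11 rose by 0.61 ± 0.15 in DSS against Control (adjusted p = 0.0287) and fell by 0.64 ± 0.15 on the log2 scale in GsMTx4 against DSS (adjusted p = 0.0297). The first call was lost without DSS replicate 1, DSS replicate 3 or any Control library (highest adjusted p = 0.105), and the second without any library but GsMTx4 replicate 1 and DSS replicate 2 (highest adjusted p = 0.0808).

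Dnajb9 (ERdj4), which works with Hspa5 in the disposal of misfolded ER proteins, had 15.8, 18.4 and 14.7 FPKM in GsMTx4, 20.6, 26.4 and 32.1 FPKM in DSS and 18.2, 20.3 and 18.9 FPKM in Control libraries. It fell by 0.65 ± 0.17 on the log2 scale in GsMTx4 against DSS (adjusted p = 0.0389), a call lost without any library but DSS replicate 1 (highest adjusted p = 0.0961), and was not called in DSS against Control (0.42 ± 0.17, adjusted p = 0.109). Hspa5 (BiP), the central chaperone of the ER, had 137, 71.1 and 62.3 FPKM in GsMTx4, 144, 90.1 and 203 FPKM in DSS and 117, 69.2 and 78.7 FPKM in Control libraries. The groups overlapped widely, and no call was made (0.68 ± 0.37, adjusted p = 0.222 in DSS against Control, and -0.70 ± 0.37, adjusted p = 0.240 in GsMTx4 against DSS). Hsp90b1 (GRP94), the HSP90 of the ER, had 190.2, 174 and 122 FPKM in GsMTx4, 226, 174 and 292 FPKM in DSS and 184, 161 and 130.4 FPKM in Control libraries. DSS replicate 3 was the highest library for Hspa5, Hsp90b1 and Dnajb9, and Hsp90b1 was not called either (0.52 ± 0.25, adjusted p = 0.166, and -0.50 ± 0.25, adjusted p = 0.208). Dnajc3 (p58IPK), one of the members with an ER stress response element, had log2 fold changes of 0.33 ± 0.14 in DSS against Control (adjusted p = 0.127) and -0.28 ± 0.14 in GsMTx4 against DSS (adjusted p = 0.202).

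Plasma cells, which secrete antibody and carry an enlarged ER, had markers with the highest sums in DSS libraries. The marker sum was 467 to 522 FPKM in GsMTx4, 664 to 942 FPKM in DSS and 385 to 529 FPKM in Control libraries. Of the 7 markers, 5 rose in DSS against Control and 4 fell in GsMTx4 against DSS, with 0 called the other way. They were Mzb1, Jchain, Xbp1, Sdc1, Derl3, Pou2af1 and Tnfrsf17, a list not cleared of genes that act in the ER. Within GsMTx4, replicate 3 was highest in the marker sum (522 FPKM) and lowest in the ER member sum (276 FPKM). Control replicate 1 was the highest of its group in both sums (529 and 416 FPKM). Calr, a lectin chaperone of the ER outside the member list, rose in DSS against Control (0.76 ± 0.20, adjusted p = 0.0313), a call lost without any one DSS library, Control replicate 2 or Control replicate 3. Hyou1, the ER member of the HSP110 line, was not called (0.51 ± 0.36, adjusted p = 0.332). Markers of other inflammatory and vascular cells were higher in DSS libraries as well. Neutrophil markers summed to 6.10 to 46.0 FPKM in GsMTx4, 65.7 to 319 FPKM in DSS and 2.42 to 3.69 FPKM in Control libraries, and of 6 tested 5 rose in DSS against Control and 4 fell in GsMTx4 against DSS. Macrophage markers summed to 532 to 667 FPKM in GsMTx4, 860.1 to 1093 FPKM in DSS and 469.7 to 565 FPKM in Control libraries, with 4 of 8 rising and 2 falling in these comparisons. Endothelial markers summed to 24.9 to 39.3 FPKM in GsMTx4, 45.0 to 89.5 FPKM in DSS and 28.9 to 36.7 FPKM in Control libraries, with 5 of 9 rising and 3 falling. Beside all these marker counts, 6.41% of all tested genes rose in DSS against Control and 5.62% fell in GsMTx4 against DSS. The part of any of these cell types in the ER result was not tested.

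The constitutive cytosolic chaperones Hsp90ab1 and Hspa8 were the most abundant members and did not pass in any comparison. Hsp90ab1, an HSP90, had a mean of 241 FPKM over the 9 libraries and Hspa8 a mean of 213 FPKM. It had 216, 260.4 and 226 FPKM in GsMTx4, 209, 144 and 236 FPKM in DSS and 338, 268 and 274 FPKM in Control libraries. DSS libraries lay below the Control libraries but overlapped those of GsMTx4 (-0.60 ± 0.21, adjusted p = 0.0772 in DSS against Control, and 0.28 ± 0.21, adjusted p = 0.409 in GsMTx4 against DSS). Its inducible partner Hsp90aa1 had 37.2, 66.8 and 44.2 FPKM in GsMTx4, 36.9, 28.6 and 64.2 FPKM in DSS and 56.5, 48.5 and 45.0 FPKM in Control libraries, with fold changes smaller than their errors, and 58.5% of the 50-base stretches of its transcript also occur in other transcripts. Hspa8 (HSC70), an HSP70 made without stress, had 255, 226 and 255 FPKM in GsMTx4, 190.4, 147 and 183 FPKM in DSS and 212, 189 and 264 FPKM in Control libraries. All 3 GsMTx4 libraries were above the DSS libraries, short of the threshold (0.50 ± 0.18, adjusted p = 0.0959), and 73.2% of the 50-base stretches of the Hspa8 transcript also occur in other transcripts.

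Among 22 tested HSP90 cochaperones outside the member list, 3 fell and 0 rose in DSS against Control, and 1 rose and 1 fell in GsMTx4 against DSS. Of all tested genes, 10.7% fell and 6.41% rose in the first comparison, and 6.66% rose and 5.62% fell in the second. Fkbp4 (FKBP52), an immunophilin of steroid receptor complexes, averaged 83.7 ± 9.77 FPKM in GsMTx4, 42.3 ± 7.76 FPKM in DSS and 79.0 ± 5.31 FPKM in Control libraries. It fell in DSS against Control (-0.90 ± 0.17, adjusted p = 0.00872) and rose in GsMTx4 against DSS (0.98 ± 0.17, adjusted p = 0.00906), and kept both calls without any single library and under every other alternative run. Fkbp5 (FKBP51), a related immunophilin induced by glucocorticoids, averaged 7.33 ± 1.82 FPKM in GsMTx4, 21.3 ± 6.53 FPKM in DSS and 13.4 ± 3.77 FPKM in Control libraries. It fell in GsMTx4 against DSS (-1.40 ± 0.28, adjusted p = 0.0148), a call lost only without GsMTx4 replicate 2 (adjusted p = 0.0531), and was not called in DSS against Control (0.62 ± 0.28, adjusted p = 0.143). The phosphatase Ppp5c and the ATPase Ruvbl2 were the other falls in DSS against Control (-0.62 ± 0.15, adjusted p = 0.0245, and -0.63 ± 0.19, adjusted p = 0.0474), and both calls were lost without DSS replicate 2, DSS replicate 3 or any Control library.

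The set of 9 classic cytosolic heat shock genes holds Hsp90ab1 and Hspa8, which are made without stress, beside the heat-inducible Hsp90aa1, Hspa1a, Hspa1b, Hsph1, Dnajb1, Dnaja1 and Hspb1. In limma 0 of the 9 passed in any comparison, and 0 of the 7 heat-inducible ones had an unadjusted p under 0.05. The median log2 fold change of the 7 was -0.03 in DSS against Control, -0.52 in GsMTx4 against DSS with 6 below 0, and -0.61 in GsMTx4 against Control with all 7 below 0. Over all 9 these medians were -0.10, -0.28 and -0.32, the last with 8 below 0. In DSS against Control the median of the 7 turned positive by median of ratios (0.12) and quantile normalization (0.13). In GsMTx4 against Control it stayed below 0 as TPM, by median of ratios and by quantiles (-0.79, -0.51 and -0.51), with 7, 5 and 6 of the 7 below 0. Hspa1a, the stress-inducible HSP70, had 2.76, 0.945 and 2.04 FPKM in GsMTx4, 1.46, 2.69 and 6.30 FPKM in DSS and 5.37, 2.95 and 2.87 FPKM in Control libraries. Its near-copy Hspa1b had 5.12, 4.36 and 4.33 FPKM in GsMTx4, 5.42, 5.65 and 14.0 FPKM in DSS and 14.2, 4.89 and 7.76 FPKM in Control libraries. In both genes DSS replicate 3 and Control replicate 1 were the highest libraries of their groups, and the DSS and Control ranges overlapped. Log2 fold changes in DSS against Control were -0.19 ± 0.40 for Hspa1a and -0.10 ± 0.39 for Hspa1b (adjusted p = 0.760 and 0.873), and 62.3% of the 50-base stretches of the Hspa1b transcript occur in Hspa1a, so the reads of the pair cannot be assigned with certainty.

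Hsph1 (HSP105), a nucleotide exchange factor of HSP70, had 3.23, 4.15 and 2.22 FPKM in GsMTx4, 4.73, 3.08 and 9.13 FPKM in DSS and 6.43, 4.91 and 4.71 FPKM in Control libraries. Dnajb1 (HSP40), the inducible J-domain partner, had 23.2, 19.8 and 19.6 FPKM in GsMTx4, 22.7, 28.3 and 25.1 FPKM in DSS and 24.1, 18.6 and 20.7 FPKM in Control libraries. Neither was called, with adjusted p of 0.958 and 0.235 in DSS against Control and 0.242 and 0.251 in GsMTx4 against DSS. Dnaja1, another cytosolic J-domain partner, had log2 fold changes of 0.11 ± 0.13 and -0.28 ± 0.13 in these comparisons (adjusted p = 0.554 and 0.184). Hsf1, the factor that switches these genes on, was low at 3.37, 3.11 and 2.25 FPKM in GsMTx4, 2.04, 1.45 and 2.68 FPKM in DSS and 3.01, 3.35 and 2.66 FPKM in Control libraries, and was not called (-0.41 ± 0.18, adjusted p = 0.150, and 0.36 ± 0.18, adjusted p = 0.219). Hsf2 stayed at or below 1.26 FPKM. Among 12 tested genes of a heat shock regulation list, 1 rose in DSS against Control. In GsMTx4 against DSS 0 passed, and 1 had an unadjusted limma p under 0.05. The rise was in Sqstm1, an autophagy receptor and not a heat shock factor (0.45 ± 0.13, limma adjusted p = 0.0425). The Sqstm1 call was lost without GsMTx4 replicate 2 or any DSS or Control library. Among 15 HSP70 cochaperones, Bag1, a nucleotide exchange factor, rose in DSS against Control (0.50 ± 0.15, adjusted p = 0.0470), and 0 passed in GsMTx4 against DSS, where 2 had an unadjusted p under 0.05. The Bag1 call was kept only without GsMTx4 replicate 3 or DSS replicate 3. Those 2 genes were Bag4, a binding partner of HSP70 (0.39 ± 0.13, adjusted p = 0.0775), and Grpel1, the nucleotide exchange factor of Hspa9 (0.41 ± 0.15, adjusted p = 0.107). Beside the single rises of these lists in DSS against Control, 6.41% of all tested genes rose there.

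**Figure D5:**
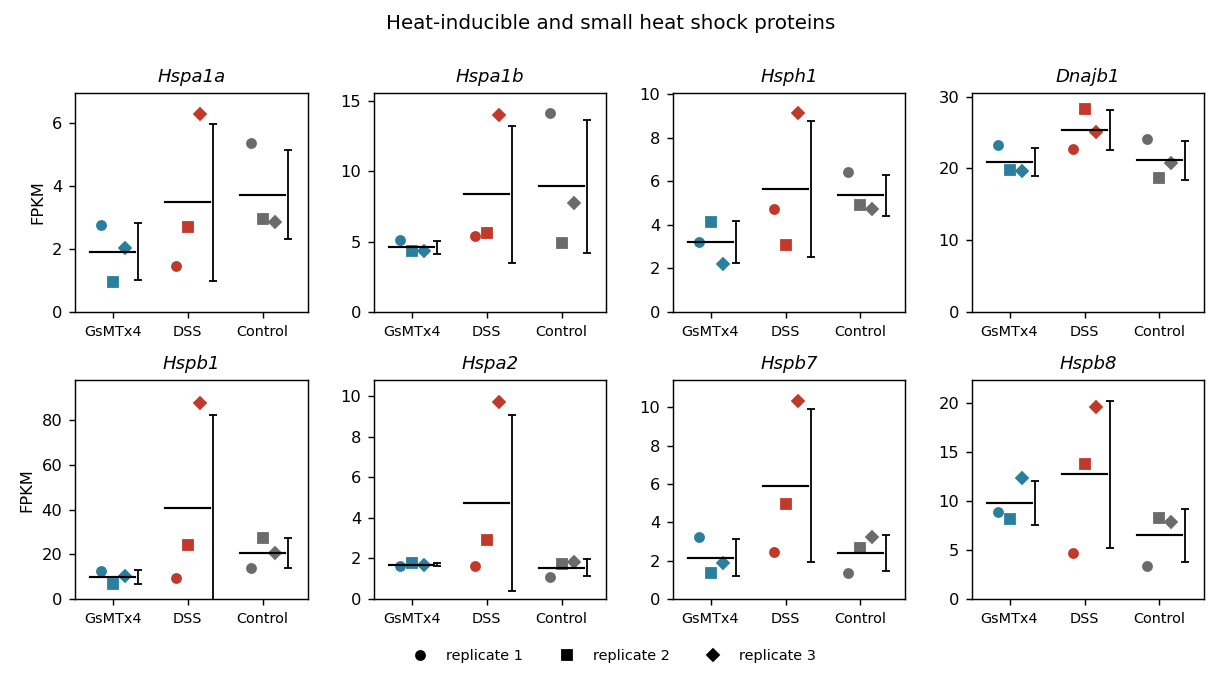
FPKM of 4 heat-inducible members and of Hspb1, Hspa2, Hspb7 and Hspb8 in each library, with marker shape giving the replicate number, a horizontal line at the group mean and a bar of 1 SD, drawn down to 0 at most. DSS replicate 3 is the highest library in 6 of the 8 panels, reaching 87.9 FPKM for Hspb1.

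Small heat shock proteins hold unfolded proteins in soluble complexes and are abundant in muscle. None of the 6 tested was called in limma in any comparison. Hspb1 (HSP25) had 12.7, 6.51 and 10.5 FPKM in GsMTx4, 9.44, 24.3 and 87.9 FPKM in DSS and 14.0, 27.5 and 20.6 FPKM in Control libraries. DSS replicate 3 was far above every other library, and the other DSS libraries overlapped the Control libraries. The log2 fold change of Hspb1 in DSS against Control was 0.45 ± 0.65 (adjusted p = 0.637) and -0.37 without that library, and in GsMTx4 against DSS it was -1.44 ± 0.65 (adjusted p = 0.172). Of the 50-base stretches of the Hspb1 transcript, 51.7% also occur in the pseudogene Hsp25-ps1. Hspb7, a small HSP of heart and muscle, had 3.22, 1.35 and 1.90 FPKM in GsMTx4, 2.48, 4.98 and 10.3 FPKM in DSS and 1.35, 2.64 and 3.21 FPKM in Control libraries. Hspb8, a partner of Bag3 in the clearance of damaged proteins, had 8.83, 8.12 and 12.3 FPKM in GsMTx4, 4.70, 13.8 and 19.6 FPKM in DSS and 3.35, 8.25 and 7.86 FPKM in Control libraries. In these 3 genes DSS replicate 3 was the highest library of its group and DSS replicate 1 the lowest. The same held for the smooth muscle, neutrophil, and enteric neuron and glia marker sums. These were 282, 65.7 and 3.89 FPKM in DSS replicate 1 and 1079.7, 319 and 26.2 FPKM in DSS replicate 3. Between groups the smooth muscle and small HSP medians had opposite signs. In DSS against Control they were -0.46 (9 of 12 markers below 0) and 0.32 (5 of 6 members above 0). In GsMTx4 against DSS they were 0.35 (10 above 0) and -0.18 (5 below 0). The member of the other sign in both comparisons was Hspb11 (-0.15 and 0.20). Hspb11 enters by its name and is a protein of intraflagellar transport. The part of any of these cell types in the small HSP values was not tested. Hspa2, an HSP70 best known from testis, had 9.70 FPKM in DSS replicate 3 and at most 2.89 FPKM in any other library. Cryab is itself a small HSP, which the member rule leaves out by its name, so the family counts do not hold it. Cryab and Bag3, the partner of Hspb8, were not called (limma adjusted p = 0.456 and 0.918 in DSS against Control, 0.975 and 0.433 in GsMTx4 against DSS).

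The largest family, Dnajc, had 24 tested members, none called in limma in any comparison. Its median log2 fold change was -0.25 in DSS against Control and 0.17 in GsMTx4 against DSS, near the medians of all tested genes. Dnajc17, a nuclear J protein tied to splicing, had 5.79, 5.25 and 7.50 FPKM in GsMTx4, 4.88, 4.90 and 5.45 FPKM in DSS and 6.87, 7.21 and 7.44 FPKM in Control libraries. The DSS libraries were below the Control libraries, but the call was missed (-0.43 ± 0.14, adjusted p = 0.0614). Dnajc2 (zuotin-related factor), which sits at the ribosome, had 7.19, 9.24 and 8.21 FPKM in GsMTx4, 6.08, 4.71 and 6.22 FPKM in DSS and 7.39, 7.76 and 7.10 FPKM in Control libraries. It came closest in GsMTx4 against DSS (0.47 ± 0.14, adjusted p = 0.0593). Hspa12a, a distant HSP70 relative, had 6.29, 4.77 and 2.81 FPKM in GsMTx4, 6.71, 5.83 and 7.91 FPKM in DSS and 3.49, 4.09 and 4.60 FPKM in Control libraries, and was not called (0.62 ± 0.23, adjusted p = 0.0883 in DSS against Control).

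In GsMTx4 against Control the members' median log2 fold change was -0.02, beside -0.08 for all tested genes. The mitochondrial, ER and Cct medians were -0.04, -0.02 and 0.14. The median was -0.32 for the 9 classic cytosolic heat shock genes given above, of which none was called. It was -0.61 for the 7 heat-inducible ones, which were set apart after values were seen. Dnajb12, a J-domain protein anchored in the ER membrane that feeds misfolded membrane proteins to the proteasome, was the member with the smallest p. It had 9.78, 7.80 and 8.09 FPKM in GsMTx4, 8.52, 10.1 and 10.9 FPKM in DSS and 11.9, 12.6 and 12.5 FPKM in Control libraries. The GsMTx4 libraries were below the Control libraries, with a log2 fold change of -0.48 ± 0.13 that did not pass (adjusted p = 0.283). Other J-domain members with the smallest p of their families here were Dnaja3, which was above 0 (0.30 ± 0.14), and Dnaja4 (-0.28 ± 0.19). Dnajb14 (-0.23 ± 0.16), Dnajc4 (-0.29 ± 0.16) and Dnajc30 (-0.28 ± 0.15) were the rest. Their limma adjusted p lay between 0.528 for Dnaja3 and 0.681. A missed threshold with 3 libraries a group does not show that the groups were alike.

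The 14 members that were not tested stayed at or below 1.39 FPKM in every library. They were Cct6b, Cct8l1, Dnajb3, Dnajb7, Dnajb8, Dnajc5b, Dnajc5g, Dnajc6, Dnajc27, Hsf2bp, Hsf3, Hsf4, Hsf5 and Hspb9, several of which are best known from testis, the lens or neurons. Hsf2bp enters by its name and is not a heat shock factor.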

How the data were processed

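The authors deposited 1 table of FPKM values for 35315 genes in 9 colon libraries. Per the submitters' processing notes, cutadapt and FastQC were used and the build was GRCm38. No aligner or quantification program is given in the sources used here. Groups and replicate numbers came from the sample titles. Symbols were taken from GENCODE M21 for 35196 genes; 9 pseudogene rows that matched a stem were left out, and Cct6a, annotated there as a processed transcript, was kept.

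Values were tested as log2(FPKM + 1), which understates changes of low genes, with limma 3.58.1 in R 4.3.3 (trend, empirical Bayes, 3 groups, 6 residual degrees of freedom before moderation). Genes at 1 FPKM or more in at least 3 of the 9 libraries entered, and Benjamini-Hochberg adjustment ran over all 14360. A call is an adjusted p under 0.05. Errors of fold changes are standard errors. The script was tested on simulated data.

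Members and lists were chosen with earlier results of these data known. Named members were the 2 of smallest p per family and comparison, the 8 largest called changes each way, a list of well-known members, the Cct subunits and the 5 of highest mean; the partner lists gave genes of smallest p, not all of which are printed, with Tcp1, Bag3, Cryab and Hyou1, and cell marker lists are given as counts and sums. Hsp90ab1 and Hspa8 were set apart from the heat-inducible genes after values were seen. Ruvbl2, Calr, Naca, Dnajc10, Dnajc3, Dnajc15, Dnajc19, Hspa2 and the members not tested were named after their values were seen. Figures used Python and matplotlib.

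Same-numbered libraries did not deviate together (correlations of -0.234 to 0.0998 over 9 pairs), so no replicate block was used.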

Additional observations from a re-analysis of the deposited data

How the results depend on the processing

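The calls depended on scaling and on single libraries more than on the pseudocount (0.1 or 0.01) or the variance trend, which left all member counts as they were. The reported counts were 1 higher and 3 lower in DSS against Control, and 8 higher and 2 lower in GsMTx4 against DSS. Rescaling to TPM gave 0 higher and 6 lower, then 1 and 0. Median-of-ratios scaling gave 6 higher and 2 lower in DSS against Control, and quantile normalization 4 and 4, where both left GsMTx4 against DSS within 1.5 times. These scalings shifted the median of all genes in DSS against Control by -0.11, 0.14 and 0.11 on the log2 scale and in GsMTx4 against DSS by at most 0.04 in size, while the Cct, mitochondrial and ER medians kept their signs in both comparisons. Their sizes in DSS against Control varied. By median of ratios the Cct, mitochondrial and ER medians were -0.16, -0.29 and 0.55, and as TPM they were -0.43, -0.57 and 0.32. Fitting the compared groups only gave 2 higher and 9 lower, then 1 and 0. Sample weights gave 3 higher and 13 lower, and 1 lower in GsMTx4 against DSS. Without a filter on low values GsMTx4 against DSS had 5 higher and 0 lower. With a replicate block the counts were 0 higher and 1 lower, then 2 higher and 0 lower; the numbers do not pair the libraries.

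Leaving out 1 library gave 0 to 4 higher and 1 to 8 lower in DSS against Control, and 1 to 9 higher and 0 to 3 lower in GsMTx4 against DSS. The most lower calls in DSS against Control came without GsMTx4 replicate 3, the most higher calls there without DSS replicate 1. GsMTx4 replicate 3 is outside that comparison and entered its fit only through the shared spread. No alternative gave a member call in GsMTx4 against Control. Signs turned in uncalled genes of DSS against Control: Hspb1 (-0.15 with sample weights, -0.37 to 1.18 over left-out libraries), Hspa1a (-0.61 to 0.17), Hspa1b (0.058 by median of ratios, 0.049 by quantiles, 0.11 with weights, -0.50 to 0.26) and Hsph1 (0.12, 0.13 and 0.047 under the same settings, -0.38 to 0.27), and in GsMTx4 against DSS Hsp90aa1 (-0.023 to 0.55). The causes were not tested. The 3 libraries a group and an unknown read depth limit what could be called, most of all among members near 1 FPKM.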
